A study of Mus musculus with 4 samples.

Results

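Macrophage cluster 3 is a set of 1104 lavage cells of 9925 in the series, chosen as the cells that the authors' cell annotation places both in the refined type Macrophage 3 and in the broad type alveolar macrophage. All cells of the refined type carried that broad type, and they made up part of 7933 alveolar macrophages, which the annotation divides into 10 refined clusters. The cluster held 179 cells in the APM library and 906 in the control library. A further 10 cells came from the HDM+APM library and 9 from the HDM library, too few for a gene-level comparison.

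The airspaces of C57BL/6 mice were lavaged, and the cells of 7 mice per group were pooled into 1 single-cell library, so each group is 1 sample and no value here has a replicate. In the APM group, mice breathed an aerosol of Afghanistan particulate matter, a desert dust, at a concentration of 5 mg/m3 in whole-body chambers. Each of the 12 daily exposures lasted 6 hours, and saline was given through the nose from 9 days after the last one. In the control group, filtered air took the place of the dust and saline was given on the same days. The HDM+APM and HDM groups received 10 µg of house dust mite instead of saline, after dust or filtered air. Saline or mite was given on days 22 and 29 and again on days 36, 37 and 38, and lavage was on day 39. No age or sex is stated in the labels, and no label ties a cell to a mouse.

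Alveolar macrophages are long-lived phagocytes of the air-filled lung surface, where they clear inhaled particles and surfactant lipid. Slc7a11, the gene given as the marker of this cluster, encodes the light chain of the cystine/glutamate exchanger, which brings in cystine for glutathione synthesis. Its transcription is known to be driven by NRF2, the regulator of the antioxidant response, and by ATF4, the regulator of the response to amino acid shortage. NRF2 also drives genes for thioredoxin, peroxiredoxin, ferritin, haem breakdown and NADPH supply.

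The regulatory sequences upstream of 3 genes, the marker Slc7a11 with Prdx1 and Gclm, are shown because their levels are given in the results. They are RefSeq windows on GRCm38.p6, written 5′ to 3′ on the gene's own strand, with 250 bases before the start site and 50 from it on. Capitals mark TGATGNAA, a motif of the kind bound by ATF4, in the Slc7a11 window (chr3:50443564-50443863, minus strand), and TGACNNNGC, the core of the antioxidant response element bound by NRF2, in the Prdx1 window (chr4:116685349-116685648, plus strand) and the Gclm window (chr3:122245307-122245606, plus strand).
Slc7a11: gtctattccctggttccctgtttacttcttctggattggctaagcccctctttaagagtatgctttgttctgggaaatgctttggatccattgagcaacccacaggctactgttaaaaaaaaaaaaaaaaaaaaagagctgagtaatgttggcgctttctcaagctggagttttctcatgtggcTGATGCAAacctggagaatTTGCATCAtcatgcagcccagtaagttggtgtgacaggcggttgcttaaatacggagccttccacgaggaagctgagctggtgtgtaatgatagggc
Prdx1: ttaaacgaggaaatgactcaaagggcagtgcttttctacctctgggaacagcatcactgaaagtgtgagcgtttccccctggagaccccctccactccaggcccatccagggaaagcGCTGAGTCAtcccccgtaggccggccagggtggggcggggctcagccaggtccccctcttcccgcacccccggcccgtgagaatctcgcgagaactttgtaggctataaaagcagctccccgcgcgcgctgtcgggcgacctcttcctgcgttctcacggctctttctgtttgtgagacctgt
Gclm: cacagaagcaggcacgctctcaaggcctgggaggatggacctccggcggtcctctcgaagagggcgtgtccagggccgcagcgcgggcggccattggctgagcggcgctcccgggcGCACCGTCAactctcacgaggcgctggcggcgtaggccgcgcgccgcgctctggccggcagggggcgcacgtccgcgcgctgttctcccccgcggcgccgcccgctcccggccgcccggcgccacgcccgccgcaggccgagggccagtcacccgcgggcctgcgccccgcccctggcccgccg
Both strands were searched. The Slc7a11 window held the TGATGNAA motif at 2 places, once on each strand, and 3.97% of all 32851 windows held it. The TGACNNNGC core was in 12.4% of all windows and in 8 of 29 windows of the 22 NRF2 target genes with an entry, which is 27.6%, and it was not in the Slc7a11 window. It was also in 11 of 34 windows of the ATF4 list, which is 32.4%. A match describes the letters only and says nothing of binding in these cells.

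Cluster 3 was the deepest macrophage cluster in the APM and control libraries. A cell of it gave a median of 5082 unique molecular identifiers (UMIs, each 1 captured transcript) and 1693 genes in the APM library, and 5619 UMIs and 1819.5 genes in the control library. The next deepest clusters were cluster 5 in the APM library, with a median of 4320.5 UMIs, and cluster 9 in the control library, with 5052.5. The share of UMIs from mitochondrial genes had a median of 2.90% in APM cells and 3.18% in control cells of cluster 3, close to 2.77% and 3.31% in cluster 5. The files hold 13838 genes, cells run between 496 and 9998 UMIs, and 5 cells of cluster 3 carry a cell barcode that also occurs in another library. Doublets were not called here.

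Cluster 3 held a smaller share of the macrophages in the APM library than in the control library. It made up 4.84% of the alveolar macrophages in the APM library (179 of 3697, exact Clopper-Pearson 95% interval 4.17 to 5.58%) and 23.3% in the control library (906 of 3882, interval 22.0 to 24.7%). It was 6.45% of 155 alveolar macrophages in the HDM+APM library and 4.52% of 199 in the HDM library. Among macrophages with at least 2000 UMIs, the share was 6.22% with APM and 25.9% in control. Other clusters differed between the libraries too: cluster 1 made up 2.54% of the macrophages with APM and 35.0% in control. These intervals cover counting error only and not the spread between mice, and the share also depends on how the annotation divided the macrophages.

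**Figure D1:**
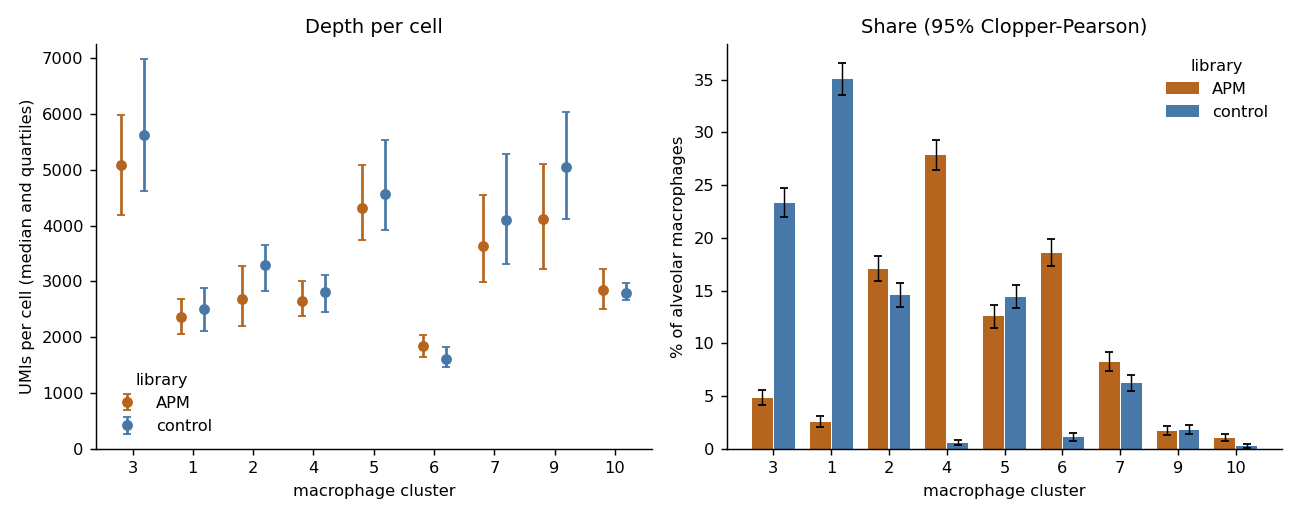
Left, UMIs per cell (points are medians, bars the quartiles) and right, share of alveolar macrophages in percent (bars with 95% Clopper-Pearson intervals), by macrophage cluster with cluster 3 first, for the APM library (brown, left) and the control library (blue, right). Cluster 3 was the deepest cluster in both libraries, and its share was 4.84% with APM and 23.3% in control.

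Slc7a11 lies at chr3:49892526-50443614 on the minus strand (GENCODE vM21, GRCm38). Levels below are the summed UMIs of a cluster scaled to CPM, that is to an equal total of UMIs, with an exact Poisson interval. In the APM library Slc7a11 stood at 504 CPM in cluster 3 (interval 459 to 552), against 716 CPM in cluster 9, 469 CPM in cluster 2 and 163 CPM in cluster 8, with 84.5 CPM or less in the others. In the control library it stood at 574 CPM in cluster 3 (554 to 595), against 719 CPM in cluster 9, 402 CPM in cluster 2, 199 CPM in cluster 8, and 151 CPM or less in the other clusters of at least 50 cells. Cluster 3 was therefore second in both libraries. Its interval overlapped that of cluster 2 in the APM library and not in the control library.

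Granulocyte-like cells, a broad type of the annotation, held more Slc7a11 than any of these clusters, at 1891 CPM in the APM library (41 UMIs in 29 cells) and 3055 CPM in the control library (18 UMIs in 7 cells). In cluster 3 a Slc7a11 UMI was found in 68.2% of APM cells and 77.3% of control cells. With each cell thinned to 1000 UMIs, which left no cluster 3 cell out, the shares were 34.1% and 35.9%. T cells, which should lack the transcript, gave 1 such cell of 52 in the APM library at a median of 1129.5 UMIs, which is 1.92%, and 1 of 13 in the control library.

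Within cluster 3 the Slc7a11 level was not even across depth. Split into 4 groups of nearly equal size by UMIs per cell, from shallow to deep, the APM cells gave 669, 589, 480 and 378 CPM, and the control cells gave 743, 514, 566 and 533 CPM. The shallowest group was highest in both libraries. Other genes named below were uneven too, from the shallowest to the deepest group. In control Cd63 went from 983 to 1615 CPM, Fabp4 from 1256 to 1740 CPM and Hmox1 from 3852 to 1779 CPM. With APM Cd63 went from 1433 to 1932 CPM, Fabp4 from 1602 to 1484 CPM and Hmox1 from 2283 to 1360 CPM. The genes whose level followed that of Slc7a11 most closely over the 16 macrophage classes of at least 50 cells, by Pearson correlation of log2(CPM + 10) among 4124 genes, were Abcc5, Ccdc88a and Fnip2 (each r = 0.969), Blvrb (0.958) and Clec4e (0.957). The classes share 2 libraries and their depth, and the correlations are a description.

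The rest of cluster 3's profile was set against the other alveolar macrophages within each library: clusters 1, 2, 4, 5, 6, 7, 9 and 10, which together held 3313 cells in the APM library and 2869 in the control library. Cluster 8 was kept out of this pool. Because the clusters were drawn from the same expression values, these differences describe the cluster and carry no test. The log2 ratios have 10 CPM added to both sides, and a gene counts as different when it lies past 1.5-fold, among genes with at least 50 UMIs over both classes. The pool differs between libraries: clusters 4 and 6 supplied much of it with APM, and cluster 1 in control, so the ratios of both libraries are given side by side without a comparison of their sizes.

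In the APM library 286 of 8686 genes were higher in cluster 3 (3.29%) and 1222 were lower (14.1%). In the control library 171 of 9207 genes were higher (1.86%) and 765 were lower (8.31%). Of the genes higher in cluster 3, 135 were shared, which is 47.2% of the APM list and 78.9% of the control list. Of the genes lower, 564 were shared, 46.2% of the APM list and 73.7% of the control list, and no gene was called in opposite directions.

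The median over all genes was -0.18 in both libraries. CPM are shares of a total, and ferritin took a larger share of it in cluster 3. The ferritin genes Fth1 and Ftl1, the heavy and light chains of the iron store, made up 13.2% of all UMIs in cluster 3, against 6.33% in the other clusters, in the APM library. In the control library they made up 12.9% in cluster 3 and 7.21% in the other clusters. When libraries were scaled by the median gene instead, 618 genes were higher and 654 lower in the APM library, and 418 higher and 288 lower in the control library. The lean toward lower genes therefore depends on the scaling, and list medians below are best read against -0.18.

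**Figure D2:**
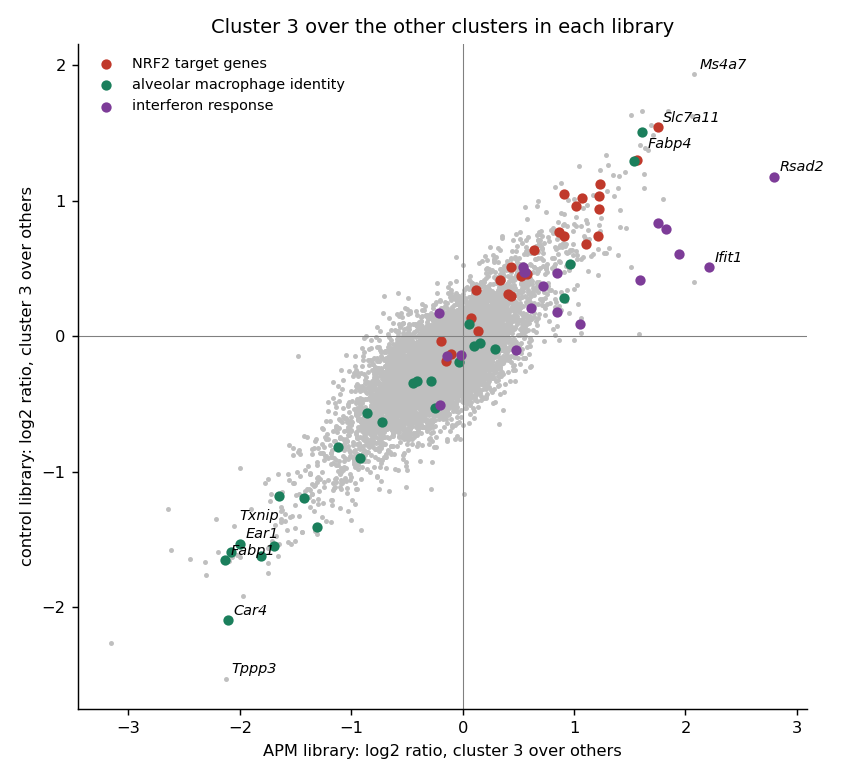
Each point is a gene with at least 50 UMIs in both comparisons; the x axis is the log2 ratio of cluster 3 over the other clusters in the APM library and the y axis the same in the control library, with 10 CPM added. NRF2 target genes (red) lie mostly up and right, many of the alveolar macrophage identity genes (green) down and left, with Fabp4 and Fabp5 up and right, and the interferon genes (purple) Rsad2 and Ifit1 lie at 2.79 and 2.21 in the APM library and 1.17 and 0.51 in the control library.

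NRF2 target genes were high as a group in cluster 3 against the other clusters pooled. Of the 25 members measured in the APM library, 13 were higher past 1.5-fold and none lower, with a median log2 ratio of 0.64, against -0.18 over all genes. In the control library 14 of 26 were higher and none lower, also with a median of 0.64. The list includes Slc7a11 itself. In a typical cell the list took 15.9% of UMIs in cluster 3 against 5.34% in the other clusters with APM (medians), and 15.4% against 7.06% in control. Most of that is ferritin: without Fth1 and Ftl1 the medians were 2.27% in cluster 3 against 0.855% in the other clusters with APM, and 2.42% against 1.11% in control. Clusters 2 and 9 were close to cluster 3 or above it. Their medians without Fth1 and Ftl1 were 2.34% and 3.12% with APM, and 2.23% and 2.85% in control.

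Among cystine and glutathione genes the members differed. Of the 12 measured with APM 4 were higher and none lower (median 0.00), and of the 11 in control 3 were higher and 1 lower (median -0.04). Slc7a11 was at 504 CPM in cluster 3 and 142 CPM in the other clusters with APM, a ratio of 3.54 (exact 95% interval 3.18 to 3.93). In control it was at 574 CPM in cluster 3 and 191 CPM in the others, a ratio of 3.01 (2.84 to 3.19). Gclm, the modifier subunit of the enzyme that begins glutathione synthesis and one of the genes whose window is printed above, was at 411 against 197 CPM with APM and 395 against 198 CPM in control. Gclc, its catalytic subunit, did not follow: it was at 45.0 CPM in cluster 3 and 52.9 CPM in the others with APM, and 62.1 and 63.9 CPM in control, with ratios whose intervals include 1. Gss, which completes glutathione, was low but higher in cluster 3 than in the pool, at 22.5 against 10.5 CPM with APM and 36.8 against 17.9 CPM in control. In clusters 2 and 9 Gss was at 25.8 and 34.1 CPM with APM, above cluster 3, and at 22.9 and 34.2 CPM in control.

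Some thioredoxin and peroxiredoxin genes were higher in cluster 3 and others were not. Prdx1, which reduces peroxides and whose window is also printed, reached 10117 CPM in cluster 3 against 4286 CPM in the others with APM, and 9457 against 4349 CPM in control. Txn1, the thioredoxin that recharges it, was at 3994 against 2118 CPM with APM and 4486 against 2167 CPM in control. Srxn1, which rescues over-oxidised peroxiredoxins, was at 148 against 63.5 CPM with APM and 168 against 101 CPM in control. Prdx3, the mitochondrial peroxiredoxin, was at 47.2 against 52.1 CPM with APM and 36.0 against 37.8 CPM in control. Prdx2 was at 126 against 172 CPM with APM and 140 against 162 CPM in control, within 1.5-fold. Cat, the catalase gene, was at 664 against 265 CPM and 651 against 305 CPM.

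Genes of the same chemistry did not all go that way. In the list of peroxidases, thioredoxins and glutathione transferases, 9 of 23 members were higher and 3 lower with APM (median 0.32), and 10 of 24 were higher and 1 lower in control (median 0.45). Txnip, which binds and inhibits thioredoxin, was among the lower ones, at 126 CPM in cluster 3 against 556 CPM in the others with APM, and 273 against 736 CPM in control. Gpx1, a glutathione peroxidase, was at 615 against 1203 CPM with APM and 766 against 1134 CPM in control, where it stayed within 1.5-fold.

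Haem and iron genes carried the next group. Past 1.5-fold, 5 of the 16 measured were higher in each library and none lower, with medians of 0.35 with APM and 0.43 in control. Blvrb, a biliverdin reductase of haem breakdown, was at 911 against 301 CPM with APM and 859 against 343 CPM in control. Slc11a1, the metal transporter NRAMP1 of the phagosome, was at 66.5 against 11.3 CPM with APM and 78.5 against 18.1 CPM in control, a ratio of 5.89 (4.24 to 8.11) and 4.35 (3.63 to 5.22). Slc40a1, the iron exporter ferroportin, was at 47.2 against 20.1 CPM and 60.3 against 35.6 CPM. Hmox1, the inducible haem oxygenase, differed less, at 1606 against 1267 CPM with APM and 2662 against 1996 CPM in control. It was far higher in cluster 9, at 8284 CPM with APM and 7587 CPM in control.

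The lipid carriers split. Fabp4 and Fabp5, fatty-acid binding proteins typical of alveolar macrophages, were highest in cluster 3 of all clusters with at least 50 cells in either library. Fabp4 was at 1536 CPM in cluster 3 against 495 CPM in the others with APM and 1498 against 522 CPM in control. Fabp5 was at 4331 against 1489 CPM with APM and 4799 against 1960 CPM in control. Gm38335, a long noncoding RNA annotated beside Fabp5 (chr3:10022311-10025539, minus strand, with Fabp5 at chr3:10012548-10016607, plus strand), was high in the same cells, at 61.1 against 12.0 CPM and 68.3 against 16.6 CPM. Fabp1, the liver-type member of the family, went the other way, at 99.7 CPM in cluster 3 against 471 CPM in the others with APM and 86.9 against 295 CPM in control. Abcg1 and Abca1, which export cholesterol, were lower too: Abcg1 was at 234 against 779 CPM with APM and 223 against 669 CPM in control.

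Many identity genes of the alveolar macrophage were low in cluster 3, although the annotation calls its cells alveolar macrophages. With APM 13 of 26 were lower past 1.5-fold and 4 higher, with a median of -0.59, and in control 12 were lower and 2 higher (median -0.55). By the scaling on the median gene those medians were -0.34 and -0.25. Siglecf, the lectin used to sort these cells, was at 26.8 CPM in cluster 3 and 80.8 CPM in the others with APM, and 25.2 and 83.4 CPM in control. Car4, a carbonic anhydrase, was at 76.1 against 361 CPM with APM and 65.9 against 314 CPM in control, the lowest level of any cluster of at least 50 cells in either library. Krt79, Krt19, Ear1 and Ear2 were lower in both libraries. Ear1 and Ear2 are near-identical copies, and how their reads were divided is uncertain.

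Other identity genes stood near the other clusters. Marco, a scavenger receptor, was at 435 CPM in cluster 3 and 404 CPM in the others with APM, and 295 and 310 CPM in control. Pparg, the lineage's regulator, was at 48.2 against 49.4 CPM and 35.1 against 41.6 CPM. All 26 identity genes were detected in cluster 3 in both libraries.

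Markers of other cell types were checked next. Of the monocyte and interstitial macrophage list, 2 of the 8 measured were higher and 4 lower with APM, and 2 of 9 higher and 3 lower in control. Those higher were Ms4a7, a membrane protein of tissue macrophages, at 103 against 16.7 CPM with APM and 126 against 25.7 CPM in control, and Trem2, a lipid-sensing receptor, at 154 against 79.3 CPM and 245 against 107 CPM. Fn1, fibronectin, was lower, at 46.1 against 178 CPM and 52.4 against 200 CPM. T cell markers summed to 4.29 CPM in cluster 3 and 4.10 CPM in the others with APM, with 8 of the 10 genes in the files at 0 in cluster 3. In control they summed to 1.87 CPM in cluster 3 and 2.297 CPM in the others, with 3 of 10 at 0. B cell markers summed to 25.7 CPM against 23.4 CPM with APM and 26.9 against 31.7 CPM in control, with 9 and 8 of 10 genes at 0 in cluster 3. Epithelial markers were higher than these, at 1789 CPM in cluster 3 against 2458 CPM in the others with APM and 365 against 469 CPM in control, with none of 13 genes at 0. Their part in the differences described here was not tested.

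The lysosomal list lay above the all-gene median. It had a median of 0.18 with APM (6 of 34 higher, none lower) and 0.11 in control (5 of 35 higher, 1 lower). Its members summed to 25853 CPM in cluster 3 against 19416 CPM in the others with APM, and 30282 against 24940 CPM in control. The list of scavenger, phagocytic and lectin receptors had medians of 0.03 with APM (5 of 28 higher, 6 lower) and -0.07 in control (3 of 29 higher, 7 lower). Cd63, a membrane protein of late endosomes and lysosomes, was at 1716 against 555 CPM with APM and 1354 against 423 CPM in control. Clec4d and Clec4e, lectins that sense mycobacterial glycolipid, were at 264 and 270 CPM in cluster 3 against 80.9 and 80.8 CPM in the others with APM. In control Clec4d was at 283 against 100.2 CPM and Clec4e at 281 against 117 CPM. Gpnmb, a lysosomal stress gene, was at 837 against 308 CPM and 715 against 371 CPM. Ccl3, a chemokine, was at 123 against 22.0 CPM and 79.3 against 19.01 CPM, and Afp, which encodes a fetal plasma protein, was at 282 against 84.0 CPM and 238 against 84.8 CPM. In cluster 9 alone Ccl3 was at 94.7 CPM with APM and 68.5 CPM in control. Of the Ccl3 UMIs of cluster 3, the top 3 cells held 33.0% with APM and 9.41% in control.

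Immediate early genes were low in cluster 3, with a median of -0.74 with APM (9 of 16 lower, 1 higher) and -0.73 in control (10 of 17 lower, none higher). Fos was at 11.8 against 81.3 CPM with APM and 16.4 against 71.6 CPM in control. Cluster 2 was low in some such genes too. With APM Jund was at 147 CPM in cluster 3, 129 CPM in cluster 2 and 322 CPM in the others, and Ier2 at 10.7, 24.1 and 47.1 CPM. In control Jund was at 85.1, 94.4 and 191 CPM, and Ier2 at 19.2, 22.9 and 49.8 CPM. Alternative activation genes had medians of -0.51 and -0.45, with 4 of 10 lower and none higher in each library. Cell cycle genes had medians of -1.15 with APM and -0.93 in control, but without clusters 7 and 10 in the pool the medians were -0.17 and -0.04. Among single genes, Tppp3, a tubulin-binding protein, was at 37.5 against 198 CPM with APM and 22.4 against 176 CPM in control. Ccl6, a chemokine, was at 1277 against 5140 CPM with APM and 1051 against 3275 CPM in control. Cytip, which regulates cell adhesion, was at 49.3 against 313 CPM with APM and 59.0 against 206 CPM in control.

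**Figure D3:**
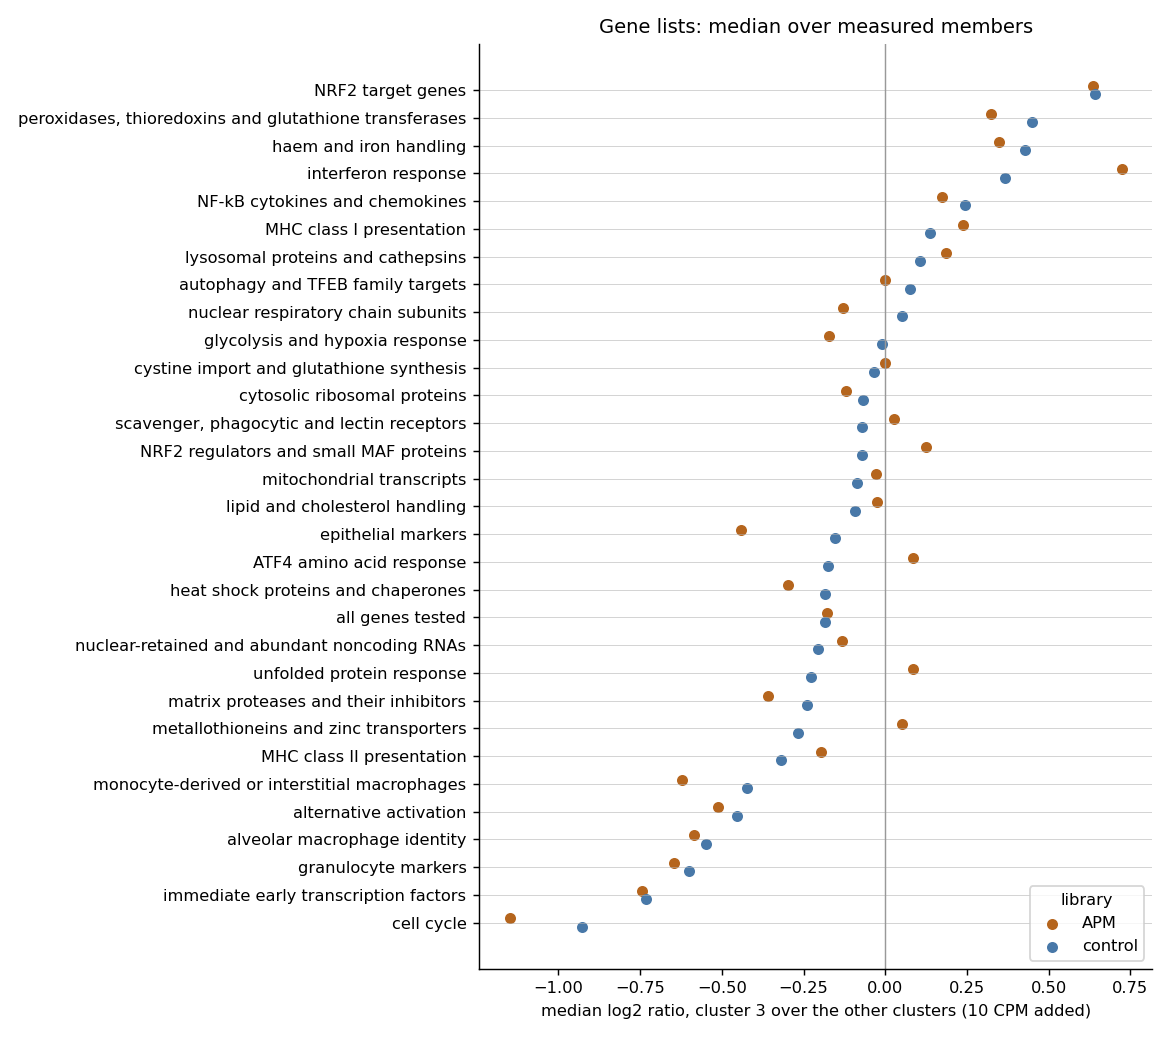
Median log2 ratio of cluster 3 over the other clusters for each gene list with at least 5 measured members (10 CPM added), APM library in brown and control library in blue, ordered by the control value. NRF2 target genes are at 0.64 in both libraries, interferon genes at 0.72 with APM and 0.37 in control, and all genes tested at -0.18 in both.

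Of clusters 1, 2, 5 and 9, each set against cluster 3 alone, cluster 2 gave the fewest differing genes. Against it, 82 of 5015 genes were higher in cluster 3 (1.64%) and 217 lower (4.33%) with APM, and 50 of 7599 higher (0.658%) and 112 lower (1.47%) in control. Against cluster 5, a deep cluster in both libraries, 250 of 5500 genes were higher (4.55%) and 727 lower (13.2%) with APM, and 212 of 7962 higher (2.66%) and 789 lower (9.91%) in control. Cluster 2 was the shallower of these 2 clusters, with a median of 2692 UMIs per cell with APM and 3294 in control.

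Against cluster 2, 1 of 26 identity genes was lower in cluster 3 with APM and none higher, and in control 1 was higher and none lower. Of the NRF2 targets, none of 25 was higher and 4 were lower with APM, and none of 26 differed past 1.5-fold in control. Car4 was at 76.1 CPM in cluster 3 and 90.5 CPM in cluster 2 with APM, and 65.9 and 85.1 CPM in control. Siglecf was at 26.8 and 29.2 CPM with APM, and Prdx1 at 10117 and 9763 CPM. Genes higher in cluster 3 than in cluster 2 included Cd63, at 1716 against 972 CPM with APM and 1354 against 637 CPM in control, Ms4a7, at 103 against 41.2 CPM and 126 against 47.5 CPM, and Ccl3, at 123 against 58.4 CPM and 79.3 against 22.4 CPM. Hmox1 was lower in cluster 3 than in cluster 2, at 1606 against 3167 CPM with APM and 2662 against 3699 CPM in control.

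**Figure D4:**
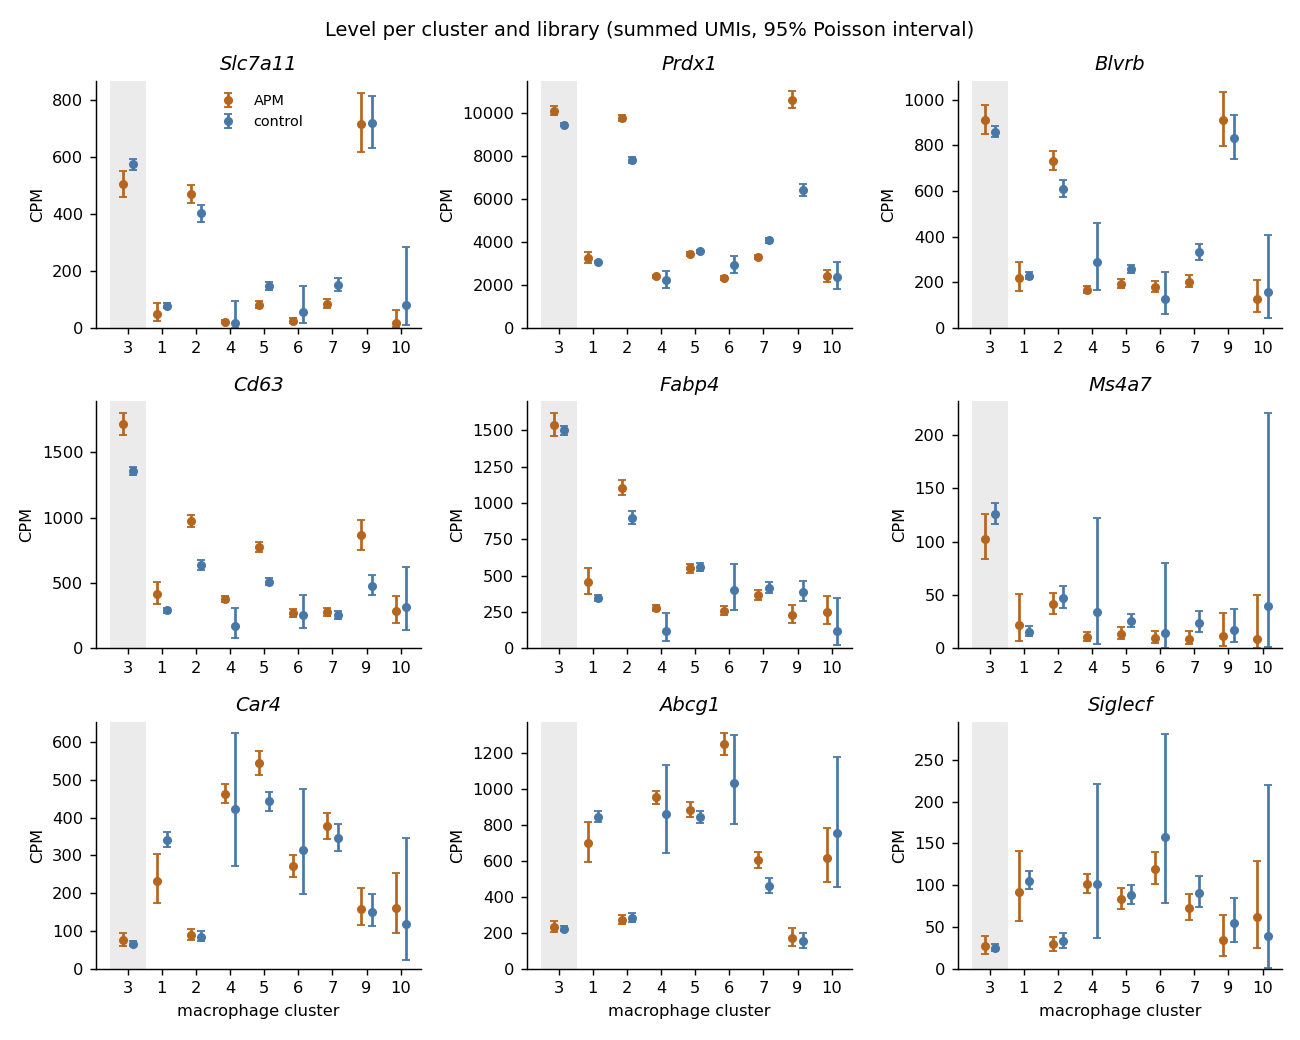
CPM of 9 genes by macrophage cluster, with cluster 3 first on a grey ground; points are summed UMIs per cluster and library with 95% Poisson intervals, APM in brown (left) and control in blue (right), each y axis starting at 0. Among clusters of at least 50 cells, 3, 2 and 9 were highest in Slc7a11, Prdx1 and Blvrb and lowest in Car4, Abcg1 and Siglecf, while Cd63 and Fabp4 were highest in cluster 3.

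The dust comparison asked how cluster 3 cells of the APM library differed from those of the control library. Of 7181 genes, 111 were higher with APM (1.55%) and 181 lower (2.52%), with an all-gene median of -0.02. In the other clusters 55 of 9635 were higher (0.571%) and 38 lower (0.394%), on more cells. Counts of list members in the dust comparison below are best read against these shares. The pool of other clusters has a different makeup in each library. With 1 library in each group there is no test, and a difference between libraries cannot be told apart from a difference between mice or preparations.

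The genes with the largest ratios were transcripts typical of other cells, with ratios of like size in cluster 3 and in the other clusters. Hbb-bs, a haemoglobin chain, was at 2169 CPM in APM cells and 106 CPM in control cells of cluster 3, and at 2683 against 144 CPM in the other clusters. Scgb1a1, a secretory protein of airway club cells, was at 858 against 169 CPM in cluster 3 and 1184 against 171 CPM in the others. The red blood cell markers summed to 4262 CPM with APM and 210 CPM in control in cluster 3, with 2 of 7 genes at 0 in both, and the epithelial markers to 1789 and 365 CPM. T cells of the APM library held 4346 CPM of Hbb-bs and those of control 215 CPM. With 5% of each class total taken off at the mean profile of its library, as an allowance for free RNA, the log2 ratio of Hbb-bs in cluster 3 was 4.42, against 4.23 without. That setting gave 125 genes higher and 230 lower.

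Slc7a11 lay within 1.5-fold, at 504 CPM with APM and 574 CPM in control, a ratio of 0.88 (0.79 to 0.97). NRF2 targets had a median of -0.20, with none of 26 higher and 3 lower, and in the other clusters the median was -0.24, also with none higher and 3 lower. Hmox1 was at 1606 CPM in APM cells and 2662 CPM in control cells, which is 1.66-fold lower. Sqstm1, the autophagy receptor that also stabilises NRF2, was at 527 against 838 CPM. Mt2, a metallothionein, was at 2764 against 4494 CPM. In the other clusters these 3 genes were lower as well, with log2 ratios of -0.65, -0.78 and -0.91. Single clusters differed: Hmox1 was at -0.22 in cluster 2 and 0.13 in cluster 9, Sqstm1 at -0.39 and -0.36, and Mt2 at -0.59 and -0.25. Prdx1 was at 10117 and 9457 CPM, within 1.5-fold.

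Txnip was at 126 CPM in APM cells and 273 CPM in control cells of cluster 3 (log2 ratio -1.05), against 556 and 736 CPM in the other clusters (-0.40). In cluster 2 its log2 ratio was -0.54. Gm10076, annotated as a long noncoding RNA, had log2 ratios of -1.08 in cluster 3 and -1.05 in the others.

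Among genes higher with APM, several belonged to the ATF4 response. Past 1.5-fold, 5 of the 26 measured were higher and none lower, with a median of 0.24, and in the other clusters 1 of 30 was higher and the median was 0.01. Over all genes the share higher with APM was 1.55% in cluster 3 and 0.571% in the other clusters, so the 2 counts have unlike backgrounds. Summed over its members, the list was higher with APM in both classes. It was at 3489 CPM with APM and 2430 CPM in control in cluster 3, and at 3579 and 2631 CPM in the other clusters. Cebpb, a stress and activation transcription factor, was at 1101 CPM in APM cells and 420 CPM in control cells, and it was higher in the other clusters too (1836 against 891 CPM). Ddit3, the stress factor CHOP, was at 122 against 53.5 CPM in cluster 3 and 53.1 against 52.5 CPM in the others together. Mthfd2, a mitochondrial folate enzyme, was at 56.8 against 19.8 CPM, and Eprs, a tRNA synthetase, at 76.1 against 36.9 CPM.

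Cluster 2 was closer to cluster 3 than the pool was in Mthfd2, Eprs and Ddit3, but not in Cebpb. The log2 ratio of Cebpb was 1.37 in cluster 3, 0.81 in cluster 2 and 1.03 in the pool. In cluster 2 the log2 ratios of APM over control were 1.27 for Mthfd2, 0.70 for Eprs, 0.66 for Ddit3 and 0.87 for Insig1, a brake on sterol synthesis, where cluster 3 had 1.17, 0.88, 1.06 and 0.89. In cluster 5 they were 0.42, -0.14, 0.01 and 0.36, and in cluster 9 0.17, 0.41, 0.68 and 1.09. Fstl1, a secreted glycoprotein of mesenchymal cells, was at 52.5 against 9.33 CPM in cluster 3, a log2 ratio of 1.69, against 1.72 in cluster 2, 1.51 in cluster 9 and 0.51 in cluster 5. No test of the difference between clusters can be made from 1 library in each group.

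Part of the antigen presentation genes were lower with APM. For MHC class II, 3 of the 7 measured were lower and none higher (median -0.51), and in the other clusters 2 of 10 were lower, with a median of -0.20. H2-DMb1, which helps load peptide, was at 44.0 CPM in APM cells and 81.0 CPM in control cells. H2-DMa, its partner, was at 50.4 against 83.8 CPM in cluster 3, a log2 ratio of -0.64, with -0.56 in cluster 2 and 0.06 in all other clusters together. Trem2 was at 154 against 245 CPM and Ear2 at 391 against 615 CPM. The log2 ratios of H2-DMb1, Trem2 and Ear2 were -0.75, -0.63 and -0.64 in cluster 3. They were -0.58, -0.23 and -0.62 in cluster 2, and 0.02, -0.26 and -1.21 in cluster 9. H2-Aa and H2-Eb1, also of class II, were at -0.51 and -0.61 in cluster 3 and -0.79 and -0.75 in cluster 2. In all other clusters together H2-DMb1, H2-Aa and H2-Eb1 were lower with APM too, at -0.41, -0.63 and -0.49, unlike H2-DMa.

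Interferon-induced genes were higher with APM in cluster 3, and few cells carried them. Past 1.5-fold, 7 of the 19 measured were higher and 1 lower (median 0.41), and in the other clusters none of 20 was higher and the median was -0.09. Rsad2, the antiviral enzyme viperin, was at 77.2 CPM in APM cells (72 UMIs) and 19.4 CPM in control cells (104 UMIs). Ifit1, a sensor of foreign RNA, was at 48.2 against 8.21 CPM. Isg15, a ubiquitin-like modifier, was at 65.4 against 22.2 CPM. Irf1, a transcription factor of the same response, was the lower member, at 11.8 against 26.9 CPM.

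Rsad2 UMIs came from 14 of 179 APM cells, and the top 3 cells held 65.3% of them. In control they came from 30 of 906 cells, with 54.8% in the top 3. The whole list of 26 genes gave 902 UMIs in APM cells, of which the top 5 cells held 23.6%, and 3426 UMIs in control cells, with 5.72% in the top 5. Cells with 5 or more UMIs from 8 of the genes, which were picked after their values were seen, were 17 of 179 with APM (9.50%) and 24 of 906 in control (2.65%), against 7 of 3313 and 6 of 2869 cells in the other clusters. The 17 APM cells had a median of 3735 UMIs, below the cluster's 5082. Cells of the other clusters were shallower, with medians of 2667 UMIs with APM and 3009 in control, so the same cut of 5 UMIs was harder to reach there. Without the 5 cells with most interferon UMIs in each library, the list's median was 0.16 and the log2 ratio of Rsad2 was 1.43. In cells between the quartiles of UMIs per cell (99 APM and 453 control cells), the Rsad2 ratio turned to -0.47 and the median was 0.08.

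Against the other clusters pooled, cluster 3 was the higher side for interferon genes within each library as well. With APM, 11 of 19 were higher than in the other clusters and none lower (median 0.72). In control 4 of 21 were higher and none lower, with a median of 0.37. Rsad2 was at 77.2 CPM in cluster 3 and 2.56 CPM in the others with APM, and 19.4 and 3.03 CPM in control. Cluster 7 alone was near cluster 3 in control: Rsad2 was at 15.0 CPM there, Ifit1 at 8.46 CPM and Isg15 at 23.5 CPM. Cluster 3 held 8.21 CPM of Ifit1 and 22.2 CPM of Isg15 in control. With APM cluster 7 held 2.49, 4.14 and 14.9 CPM of Rsad2, Ifit1 and Isg15.

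**Figure D5:**
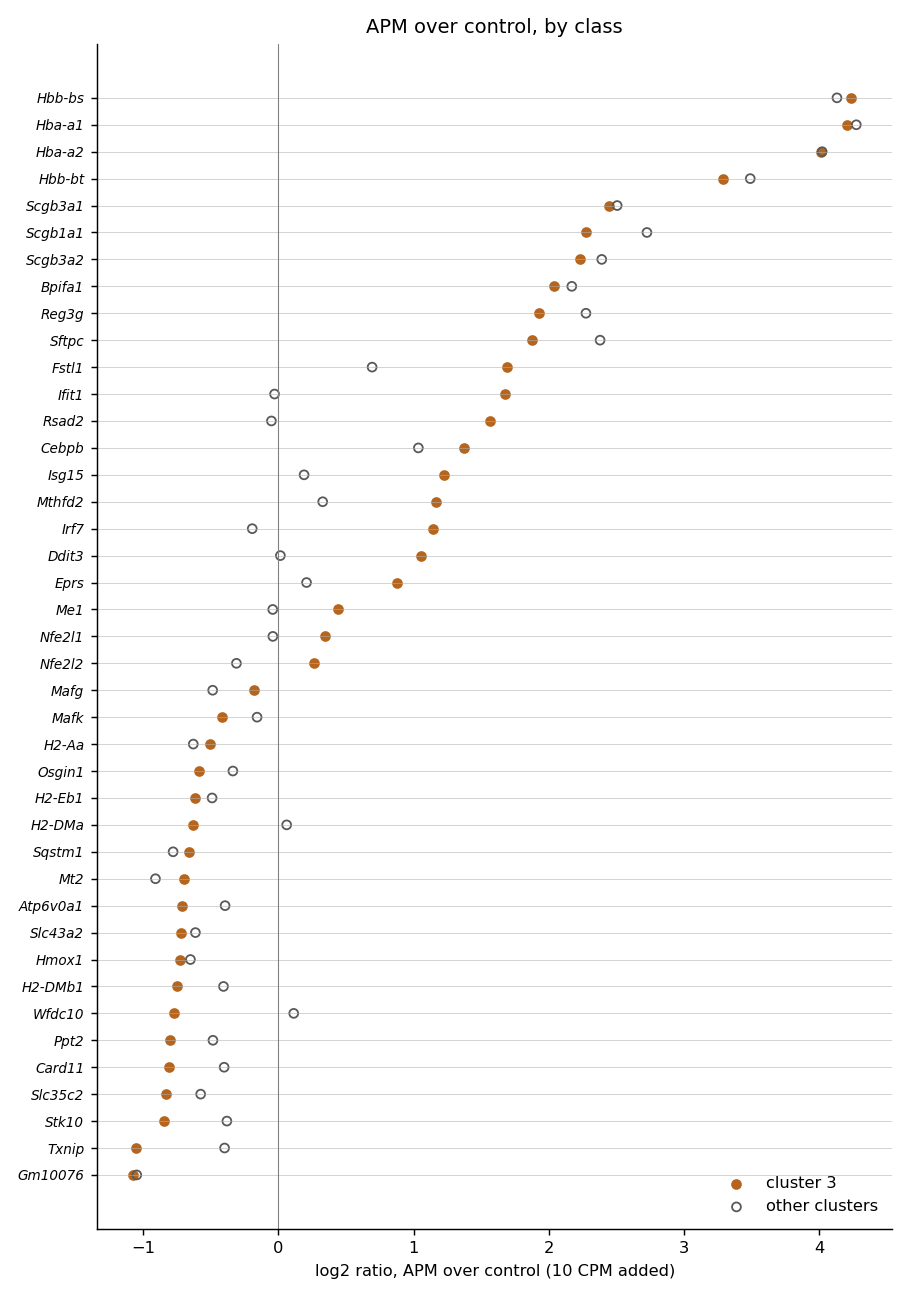
Log2 ratio of APM over control (10 CPM added) for named genes, in cluster 3 (filled) and in the other clusters together (open circles), ordered by the cluster 3 value. Haemoglobin and airway secretory transcripts were higher to a like degree in both classes, whereas Rsad2, Ifit1 and Ddit3 were apart, at 1.57, 1.68 and 1.06 in cluster 3 and near 0 in the other clusters pooled. In cluster 2 and cluster 9 alone Ddit3 was at 0.66 and 0.68.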

How the data were processed

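Lavage cells of 7 mice per group were pooled into 1 library. The authors deposited UMI counts per gene and cell for 9925 cells with a cell annotation, and both were used as deposited. Per the submitters' processing notes, Cell Ranger 2.2.0, Seurat 2.3.4 and the mm10 build were used, with no role stated. No filter on cells is stated there, and cells range from 496 to 9998 UMIs.

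Counts were summed per cluster and library and scaled to CPM. Ratios carry exact conditional binomial 95% intervals, levels Poisson intervals and shares Clopper-Pearson intervals. All cover counting error only, since UMIs of 1 cell are not independent. A gene was called past 1.5-fold (log2 ratio of 0.585, 10 CPM added) among genes with 50 or more UMIs over both classes. No p-value was computed, as each group is 1 library. Computation used Python 3.11.15, numpy 2.4.6 and scipy 1.17.1, tested on simulated data.

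Genes named were the 12 highest and 12 lowest ratios per comparison among genes of 50 CPM or more in either class, up to 4 members with the largest ratios per list, and Slc7a11, leaving out immunoglobulin genes. Further list members and genes set out beside them were chosen after their values were seen. The cluster and the 34 gene lists were chosen with earlier results of these data known, so no list's direction is independent support.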

Additional observations from a re-analysis of the deposited data

Results flagged for a closer look

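Only 9 cells of cluster 3 came from the HDM library and 10 from the HDM+APM library, and no comparison above uses them. Several summed gene lists stood above the control cells there, which is why they are given. The counts are small, each group is 1 pooled library, and no cause was tested.

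In the 10 HDM+APM cells, alternative activation genes summed to 21160 CPM, against 6140 CPM in control cells of the cluster. Chil3, a chitinase-like protein, made up most of it, at 19632 CPM against 5711 CPM, and Retnla, a resistin-like protein, was at 1009 CPM in these 10 cells against 0.746 CPM (4 UMIs) in control cells. B cells of the same library held 1053 CPM of Retnla, a level like that of cluster 3. B cell markers summed to 237 CPM (16 UMIs) in HDM+APM cells against 26.9 CPM in control cells, epithelial markers to 1261 CPM against 365 CPM, and T cell markers to 44.5 CPM (3 UMIs) against 1.87 CPM.

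In the 9 HDM cells, interferon genes summed to 1693 CPM (94 UMIs) against 639 CPM in control cells, red blood cell markers to 1657 CPM against 210 CPM, and T cell markers to 72.0 CPM (4 UMIs) against 1.87 CPM.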

How the results depend on the processing

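No paired analysis was possible because each group is 1 pooled library. Counts of genes past 1.5-fold depended on the settings, and are given as higher and lower for cluster 3 over the others with APM, the same in control, and APM over control within cluster 3. Adding 1 CPM gave 525 and 2398, 303 and 1996, and 342 and 673. Adding 50 CPM gave 105 and 252, 58 and 172, and 37 and 8. Calling past 2-fold gave 84 and 260, 39 and 144, and 28 and 6. Thinning cells to 1000 UMIs gave 638 and 2470, 1272 lower in control, and 746 and 1204. Cells within the UMI quartiles gave 437 higher with APM, and 196 and 499 for the dust. A minimum of 200 UMIs gave 175 higher with APM, and 49 and 61 for the dust. Scaling on the median gene gave 618 and 654, and 418 and 288. Cells of at least 2000 UMIs gave shares of 6.22% with APM and 25.9% in control.

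Of 4093 log2 ratios of named genes under the alternatives, 808 left their counting interval and 4 that were past 1.5-fold changed sign. The 808 include 190 with 50 CPM added, 168 with scaling on the median gene, 152 in cells within the UMI quartiles and 123 after thinning. Of 956 list medians, 93 moved. The causes were not tested. Without clusters 7 and 10, Top2a in control was at 0.044 and Stmn1 with APM at 0.036. In cells within the UMI quartiles, Cxcl10 over the other clusters was at -0.50 with APM, and Rsad2 over control was at -0.47. Calling past 2-fold and leaving out interferon-rich cells were chosen after seeing the data. The minimum of 50 UMIs is a choice: without it 12341 genes were compared for the dust.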

Other observations

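The marker Slc7a11 itself was at 234 CPM in the 9 HDM cells (13 UMIs) and at 697 CPM in the 10 HDM+APM cells (47 UMIs), against 574 CPM in control cells. NRF2 target genes summed to 106134 CPM in the HDM cells and 154403 CPM in control cells. Prdx1 was at 5133 CPM in HDM cells and 8681 CPM in HDM+APM cells, against 9457 CPM in control cells. Cd63 was at 1225 CPM in HDM cells and 1795 CPM in HDM+APM cells, against 1354 CPM in control cells.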
